A study of Mus musculus with 12 samples.

Results

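The potassium channel genes *Kcnk6*, *Kcnk5*, *Kcnab2*, *Kcna3* and *Kcnn4* were examined in plasmablasts (PBs) and plasma cells (PCs) that lacked the transcription factor Xbp1 or Mist1, the latter encoded by *Bhlha15*. The 5 genes were chosen by name with earlier results of these data known, since *Kcnk6* was low without Xbp1 and *Kcnk5* and *Kcnab2* were low without either factor. They are 5 of 95 genes whose symbol starts with Kcn and of 24189 genes in the files. The values that selected them are those of the mutants against their controls, so that these are given as a description without a test.

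RNA-seq was performed on 10 libraries of C57BL/6 mice, 2 for each of 5 groups. The *in vitro* groups were *Bhlha15* CreER/CreER PBs, Xbp1-deficient PBs (*Cd23*-Cre *Xbp1* fl/fl) and control PBs (*Xbp1* fl/fl). These PBs were generated from B cells on 40LB feeder cells, which present CD40 ligand and BAFF, first with IL-4 and then with IL-21, and were sorted on day 8 by a gate that included CD138+ and CD23-. The *in vivo* groups were TACI+CD138+ PCs from the spleen on day 7 after immunization with NP-KLH in alum, taken from control mice and from *Cd23*-Cre *Bhlha15* fl/fl (Mist1-deficient) mice. The control PCs are labelled wild-type, whereas the methods of the study describe them as *Bhlha15* fl/fl. *Cd23*-Cre acts from the immature B cell stage on, so that the cells had lacked the factor before they became PBs or PCs. The *Bhlha15* CreER/CreER PBs carry CreER inserted into both *Bhlha15* alleles and have no control of their own, and both mutant PB genotypes are set against the same 2 libraries of control PBs. In addition, 2 lists of Mist1 peaks came from Bio-ChIP-seq of *Bhlha15* fl/fl *Rosa26* BirA/BirA PBs after 4 days of LPS stimulation, in which the floxed allele carries a biotin acceptor tag.

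Potassium channels let potassium leave the cell and thereby keep the membrane potential negative, which maintains the driving force for calcium entry in lymphocytes. *Kcna3* encodes the voltage-gated channel Kv1.3, and *Kcnn4* encodes the calcium-activated channel KCa3.1. *Kcnab2* encodes a cytoplasmic beta subunit that assembles with Kv1 channels and resembles aldo-keto reductases. *Kcnk6* (TWIK2) and *Kcnk5* (TASK2) encode channels of the 2-pore-domain family, which carry background currents. Xbp1 is the transcription factor of the unfolded protein response that is made active by Ire1-dependent splicing, and Mist1 is a basic helix-loop-helix factor of secretory cells that binds E-box sequences.

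Values are TPM, a transcript abundance that is corrected for gene length and sums to 1000000 in each library, so that the sequencing depth is unknown. Between 11514 and 12024 genes reached at least 1 TPM in a library. *Bhlha15* measured 258 and 242 TPM in control PCs and 14.4 and 16.6 TPM in Mist1-deficient PCs. In PBs, *Bhlha15* was at 176 and 159 TPM in control cells and at 0.21 and 0.55 TPM in *Bhlha15* CreER/CreER cells. It was also low in Xbp1-deficient PBs, at 3.57 and 2.60 TPM, so that these PBs were low in the mRNA of both factors. *Xbp1* was at 3168 and 3043 TPM in control PBs and at 1981 and 2024 TPM in Xbp1-deficient PBs, and since the value is summed over the whole gene it does not check the deletion. The 9 PB and PC genes of the marker list, among them *Sdc1*, *Prdm1*, *Irf4*, *Xbp1*, *Tnfrsf13b*, *Tnfrsf17*, *Igj* and *Mzb1*, were above 1 TPM in every library. Their sum was 42015 and 42027 TPM in control PBs and 21974 and 21324 TPM in Xbp1-deficient PBs.

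Promoters are shown to compare the core of the Xbp1 binding sequence in genes with a large, a small and almost no difference without Xbp1. RefSeq promoters of the GRCm38.p6 build, from 250 bases before to 50 bases after a start site, were matched for 4 of the 5 genes, with 3 promoters for *Kcnab2*, and *Kcnk6* had no entry. They were searched on both strands for ACGTGG, for its core CCACG, for the ER stress element (a CCAAT box, 9 bases and that core) and for 3 E-boxes. The E-boxes were CAGCTG, the related sequence CAGGTG and the sequence CATATG. Every match to ACGTGG contains a match to CCACG, and CCACG was also counted on its own. Capitals mark every match, and coordinates were found by an exact match to mm9.

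Promoter 1 of *Kcnab2*, which held 6 matches to CCACG of which 1 extends to ACGTGG, lies on chromosome 4 at 151851609 to 151851908 on the minus strand.
Kcnab2 promoter 1: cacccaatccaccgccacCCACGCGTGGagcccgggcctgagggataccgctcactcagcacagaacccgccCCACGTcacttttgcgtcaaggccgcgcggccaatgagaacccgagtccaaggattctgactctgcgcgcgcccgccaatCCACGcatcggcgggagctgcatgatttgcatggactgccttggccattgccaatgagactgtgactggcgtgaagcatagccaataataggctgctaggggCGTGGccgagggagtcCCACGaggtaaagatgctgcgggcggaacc
Promoter 3 of *Kcnab2*, with 1 match to ACGTGG and 2 to CCACG, lies on chromosome 4 at 151822915 to 151823214 on the minus strand.
Kcnab2 promoter 3: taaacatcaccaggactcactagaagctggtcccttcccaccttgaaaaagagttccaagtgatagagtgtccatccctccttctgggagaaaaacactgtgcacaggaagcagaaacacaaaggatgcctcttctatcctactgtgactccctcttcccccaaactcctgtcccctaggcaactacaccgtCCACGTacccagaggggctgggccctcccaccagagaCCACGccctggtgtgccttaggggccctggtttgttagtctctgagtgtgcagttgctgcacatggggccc
The *Kcnn4* promoter held 2 overlapping matches to ACGTGG, 1 on each strand, and lies on chromosome 7 at 25155032 to 25155331 on the plus strand.
Kcnn4 promoter: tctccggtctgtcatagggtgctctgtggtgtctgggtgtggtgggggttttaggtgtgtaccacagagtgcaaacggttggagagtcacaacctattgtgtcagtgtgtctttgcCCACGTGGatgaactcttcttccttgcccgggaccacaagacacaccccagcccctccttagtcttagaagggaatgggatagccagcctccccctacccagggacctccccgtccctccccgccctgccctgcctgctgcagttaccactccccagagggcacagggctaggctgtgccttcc
The *Kcnk5* promoter held no match to any of the sequences searched and lies on chromosome 14 at 21000955 to 21001254 on the minus strand.
Kcnk5 promoter: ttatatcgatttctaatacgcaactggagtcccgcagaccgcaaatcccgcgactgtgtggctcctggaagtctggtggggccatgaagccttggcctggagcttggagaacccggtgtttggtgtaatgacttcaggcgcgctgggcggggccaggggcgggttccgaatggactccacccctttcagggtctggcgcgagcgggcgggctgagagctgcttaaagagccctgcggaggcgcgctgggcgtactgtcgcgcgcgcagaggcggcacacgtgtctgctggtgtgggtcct

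ACGTGG was present in 8.31% and CCACG in 32.8% of all 32851 promoters in the RefSeq table, while the ER stress element was present in 0.119% of them and in none of those of the 4 genes. The *Kcna3* promoter held CCACG once and no ACGTGG. At least 1 of the 3 E-boxes was present in 35.8% of all promoters, and among the promoters of the 4 genes only promoter 2 of *Kcnab2* held one, a CAGGTG. These matches are a description of the sequence, and no Xbp1 binding data were used here.

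*Kcnk6* showed the largest difference of the 5 genes between Xbp1-deficient and control PBs. Its level was 43.7 and 43.6 TPM in control PBs and 1.43 and 1.53 TPM in Xbp1-deficient PBs. In *Bhlha15* CreER/CreER PBs it was at 37.1 and 31.8 TPM, which lies below the control libraries and far above the Xbp1-deficient ones. On the log2 scale of scaled TPM plus 0.1, the difference was -4.99 ± 0.10 (SE, n = 2 for each group) without Xbp1, a 31.7-fold lower value. In *Bhlha15* CreER/CreER PBs it was -0.30 ± 0.10 (SE, n = 2). In PCs, *Kcnk6* was at 115 and 103 TPM in the control and at 61.2 and 54.4 TPM without Mist1, a difference of -0.89 ± 0.10 (SE, n = 2). The order of the group means was control PCs, Mist1-deficient PCs, control PBs, *Bhlha15* CreER/CreER PBs and Xbp1-deficient PBs, and no neighbouring groups overlapped. In the mean of the Xbp1-deficient PBs, 52.5% of the genes listed were below *Kcnk6*, compared with 83.7% in control PBs and 92.9% in control PCs.

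*Kcnk5*, the other 2-pore-domain channel gene of the group, was lower in every mutant and differed much less without Xbp1. It measured 21.6 and 21.8 TPM in control PBs, 11.6 and 10.4 TPM in Xbp1-deficient PBs and 15.5 and 11.8 TPM in *Bhlha15* CreER/CreER PBs. Both mutant PB genotypes lay below the control without overlap. The log2 difference was -1.18 ± 0.12 (SE, n = 2) without Xbp1 and -0.64 ± 0.12 (SE, n = 2) in *Bhlha15* CreER/CreER PBs. Control PCs had 59.9 and 48.9 TPM and Mist1-deficient PCs 24.0 and 25.6 TPM, a log2 difference of -1.10 ± 0.13 (SE, n = 2). The level in Mist1-deficient PCs was thus close to that in control PBs. Within a library, *Kcnk6* was 1.92 to 2.69 times as high in TPM as *Kcnk5* in 8 libraries, and it was 0.124 and 0.147 times as high in the 2 Xbp1-deficient libraries.

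*Kcnab2* was the other gene with a large difference without Xbp1. Its level was 159 and 157 TPM in control PBs, 20.5 and 21.4 TPM in Xbp1-deficient PBs and 130 and 131 TPM in *Bhlha15* CreER/CreER PBs. The Xbp1-deficient libraries were therefore 8.65-fold lower on the scaled log2 scale (-3.11 ± 0.08, SE, n = 2), whereas the *Bhlha15* CreER/CreER libraries differed by -0.23 ± 0.08 (SE, n = 2). In PCs it was at 247 and 204 TPM in the control and at 108 and 110 TPM without Mist1, a difference of -1.02 ± 0.11 (SE, n = 2). The Mist1-deficient PCs ranked 4 among the 5 groups for *Kcnab2*, below control and *Bhlha15* CreER/CreER PBs, whereas they ranked 2 for *Kcnk6*, *Kcnk5* and *Kcna3*. A single annotated gene, *Gm16334*, shares exon sequence with *Kcnab2*, on the same strand, and how the counting split such reads is not given in the sources used here.

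*Kcna3*, the voltage-gated channel gene, was at 14.5 and 15.6 TPM in control PBs, 8.60 and 10.4 TPM in Xbp1-deficient PBs and 12.7 and 10.9 TPM in *Bhlha15* CreER/CreER PBs. Both mutants were below the control, by -0.87 ± 0.12 (SE, n = 2) without Xbp1 and by -0.31 ± 0.12 (SE, n = 2) in *Bhlha15* CreER/CreER PBs on the log2 scale. Control PCs had 58.7 and 61.7 TPM and Mist1-deficient PCs 28.7 and 27.6 TPM, a log2 difference of -1.08 ± 0.06 (SE, n = 2). *Kcnk5*, *Kcnab2* and *Kcna3* were thus each about 2-fold lower in Mist1-deficient PCs (2.15-fold, 2.03-fold and 2.11-fold), and *Kcnk6* was 1.86-fold lower.

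*Kcnn4* had the highest TPM of the 5 genes in every library and was the only one of them that was higher in Mist1-deficient PCs. It measured 354 and 386 TPM in control PCs and 583 and 579 TPM in Mist1-deficient PCs, a log2 difference of 0.67 ± 0.05 (SE, n = 2). In PBs it was at 373 and 345 TPM in control cells, 415 and 431 TPM in *Bhlha15* CreER/CreER cells and 396 and 438 TPM in Xbp1-deficient cells. The log2 difference in *Bhlha15* CreER/CreER PBs was 0.28 ± 0.11 (SE, n = 2). In Xbp1-deficient PBs the deposited values were 1.16 times the control and did not overlap with it, but the difference after scaling was 0.0074 ± 0.11 (SE, n = 2), and it had the opposite sign when replicate 2 of either group was left out (-0.09 and -0.07). Scaling matters in this contrast because the median over all genes was 0.21 higher on the log2 scale in Xbp1-deficient PBs as deposited and 0.0041 after scaling. The groups control PBs and control PCs overlapped, as did the 2 mutant PB genotypes.

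**Figure D1:**
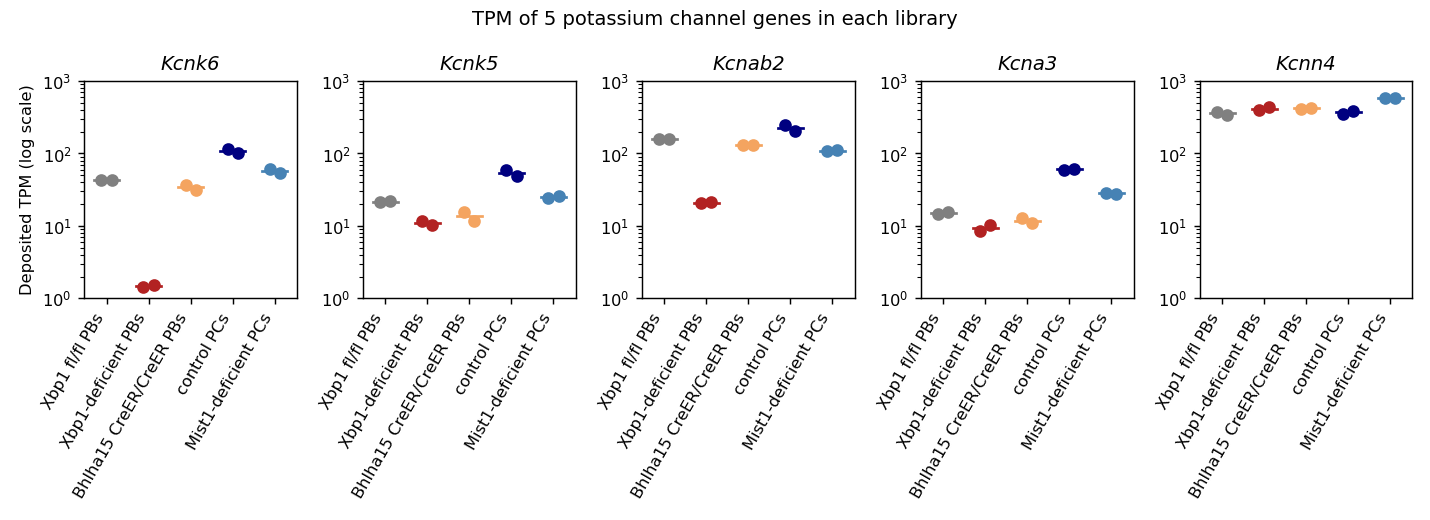
Deposited TPM (log scale) of the 5 genes in the 10 libraries, with 1 panel for each gene, 1 point for each library and a line at the mean of 2 libraries. Kcnk6 lies between 1.43 and 1.53 TPM in Xbp1-deficient PBs and between 31.8 and 115 TPM in the other groups, while Kcnn4 stays between 345 and 583 TPM.

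The background of these descriptions differs between the contrasts. In Xbp1-deficient PBs, 18.0% of the 12125 genes tested were lower and 10.3% higher at an adjusted p under 0.05 (limma, Benjamini-Hochberg), or 2186 and 1250 genes. As deposited, without scaling, the split was 1357 lower and 3423 higher. In *Bhlha15* CreER/CreER PBs, 0.272% were lower and 0.0495% higher, or 33 and 6 genes. In Mist1-deficient PCs, 16.2% of 12028 genes were lower and 13.3% higher, or 1953 and 1601 genes. These shares count genes past the adjusted p, and the share of all genes below the control without overlap is not given. Without a test, 4 of the 5 genes were below the control in both libraries of each of the 3 contrasts. *Kcnn4* was above it in *Bhlha15* CreER/CreER PBs and Mist1-deficient PCs, and in Xbp1-deficient PBs only as deposited. Since these contrasts chose the genes, nothing is read from that count. For the same reason, nothing is read from the median log2 difference of the 5 genes. It was -1.18 without Xbp1, -0.30 in *Bhlha15* CreER/CreER PBs and -1.02 in Mist1-deficient PCs. The medians over all genes, which the scaling centres, were 0.0041, 0.0044 and 0.01.

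**Figure D2:**
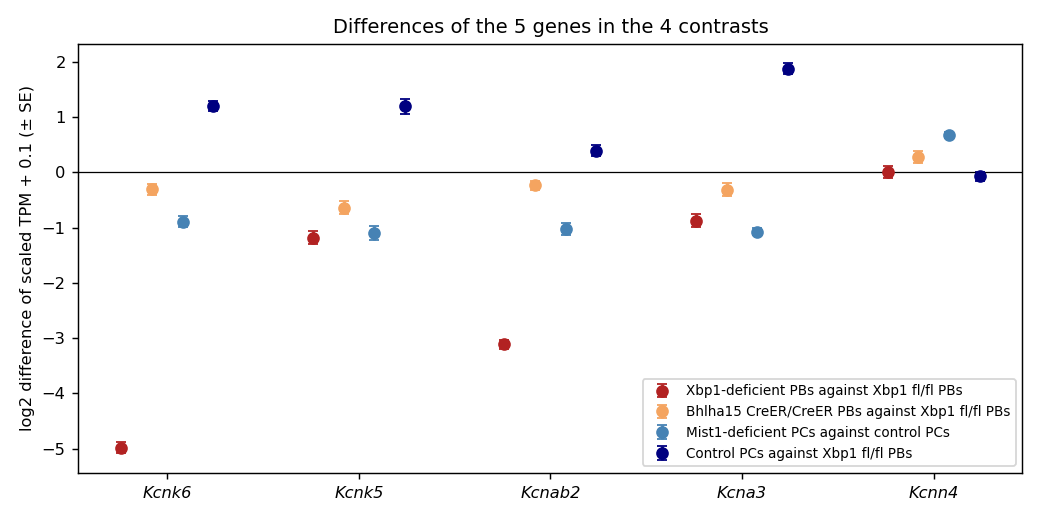
Log2 difference of scaled TPM plus 0.1 for each gene in 4 contrasts, with bars for the SE of the limma fit (n = 2 for each group). Kcnk6 (-4.99) and Kcnab2 (-3.11) stand lowest in Xbp1-deficient PBs, and Kcnn4 is above 0 in Mist1-deficient PCs (0.67).

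The contrast of control PCs with control PBs was not itself used to choose the genes and was therefore tested. Both groups are also the baselines of the contrasts that chose the genes, so that the p-values are not independent of that choice. Stage, culture, sort, immunization and the floxed locus differ together between these groups and cannot be told apart. *Kcna3* rose most, with 58.7 and 61.7 TPM in PCs against 14.5 and 15.6 TPM in PBs, a log2 difference of 1.88 ± 0.09 (SE, n = 2, adjusted p = 2.28e-07, limma). *Kcnk6* was higher by 1.20 ± 0.09 (SE, n = 2, adjusted p = 3.47e-06, limma) and *Kcnk5* by 1.20 ± 0.13 (SE, n = 2, adjusted p = 3.27e-05, limma). *Kcnab2* was higher by 0.39 ± 0.10 (SE, n = 2, adjusted p = 0.0044, limma), and by 0.23 without replicate 1 of the control PCs (adjusted p = 0.0158, limma). *Kcnn4* did not pass the test, with -0.07 ± 0.08 (SE, n = 2, adjusted p = 0.427, limma). Its sign is not settled, as it was 0.04 (adjusted p = 0.552) as deposited and 0.19 (adjusted p = 0.0229) after quantile normalization in limma. Of all 13230 genes tested in this contrast, 38.4% were lower and 37.6% higher in control PCs, so that 4 of 5 genes higher stands against a background in which most genes differed. A higher TPM in bulk RNA cannot be told apart from a larger share of cells that express the gene.

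The ratio of *Kcnn4* to *Kcna3* within a library, which no scaling between libraries can change, differed between the groups. It was 6.04 and 6.25 in control PCs and 20.3 and 21.0 in Mist1-deficient PCs. In PBs it was 25.7 and 22.1 in control cells, 32.8 and 39.6 in *Bhlha15* CreER/CreER cells and 46.0 and 42.3 in Xbp1-deficient cells. The control PCs had the lowest ratio of the 5 groups and did not overlap with any other group. The ratio of *Kcnab2*, the beta subunit gene, to *Kcna3* was 10.9 and 10.04 in control PBs, 10.3 and 12.1 in *Bhlha15* CreER/CreER PBs and 2.39 and 2.07 in Xbp1-deficient PBs. In PCs it was 4.20 and 3.30 in the control and 3.76 and 4.00 without Mist1, and these groups overlapped. As the contrasts behind these ratios chose the genes, the ratios are given without a test.

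**Figure D3:**
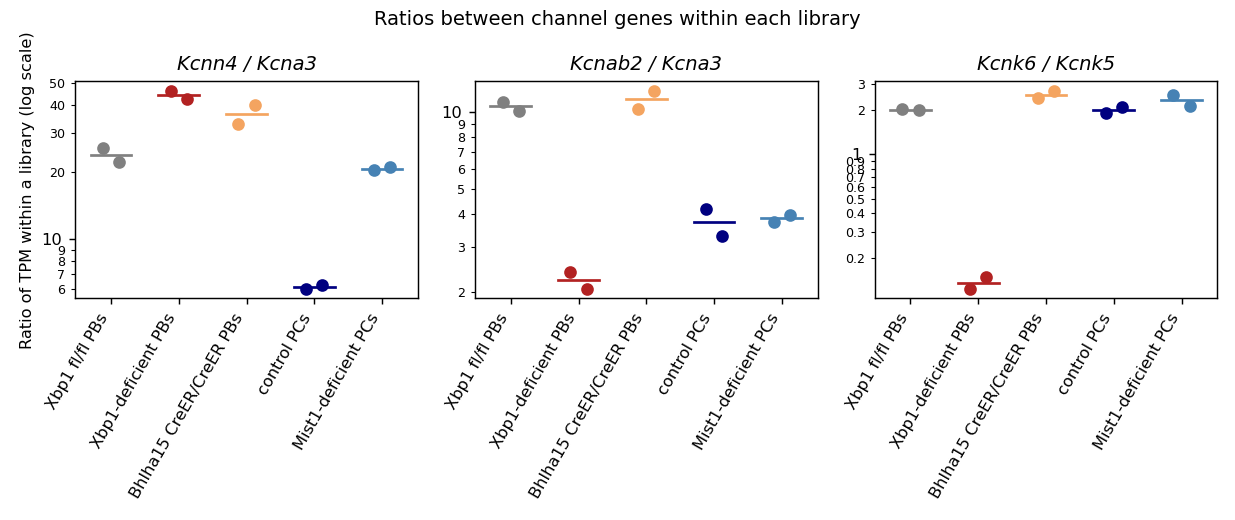
Ratio of TPM of 2 genes within each library (log scale), with 1 point for each library and a line at the mean of the group. The Kcnn4 to Kcna3 ratio is 6.04 and 6.25 in control PCs and at least 20.3 elsewhere, and the Kcnk6 to Kcnk5 ratio is 0.124 and 0.147 in Xbp1-deficient PBs.

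The 5 genes accounted for nearly all Kcn mRNA of these cells. Their sum was 93.6% to 96.3% of the TPM of all 95 Kcn genes in the 10 libraries. The family summed to 882 and 853 TPM in control PCs, 852 and 843 TPM in Mist1-deficient PCs, 640 and 613 TPM in control PBs, 468 and 514 TPM in Xbp1-deficient PBs and 637 and 640 TPM in *Bhlha15* CreER/CreER PBs. The sum was therefore nearly the same in both PC genotypes although its parts were not. Among the 14 genes of the 2-pore-domain class, *Kcnk6* and *Kcnk5* together gave 175 of 177 TPM in replicate 1 of the control PCs, and 13.0 of 16.8 TPM in replicate 1 of the Xbp1-deficient PBs. *Kcnn4* gave nearly the whole of the calcium- and sodium-activated class, in which the 7 other genes summed to between 0.23 and 0.586 TPM in any library. The other 40 voltage-gated genes summed to less than *Kcna3* in PCs and in control PBs, but to more in both mutant PB genotypes, with 13.9 and 14.5 TPM in Xbp1-deficient PBs and 13.7 and 11.8 TPM in *Bhlha15* CreER/CreER PBs. These classes were set by symbol after the values had been seen.

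**Figure D4:**
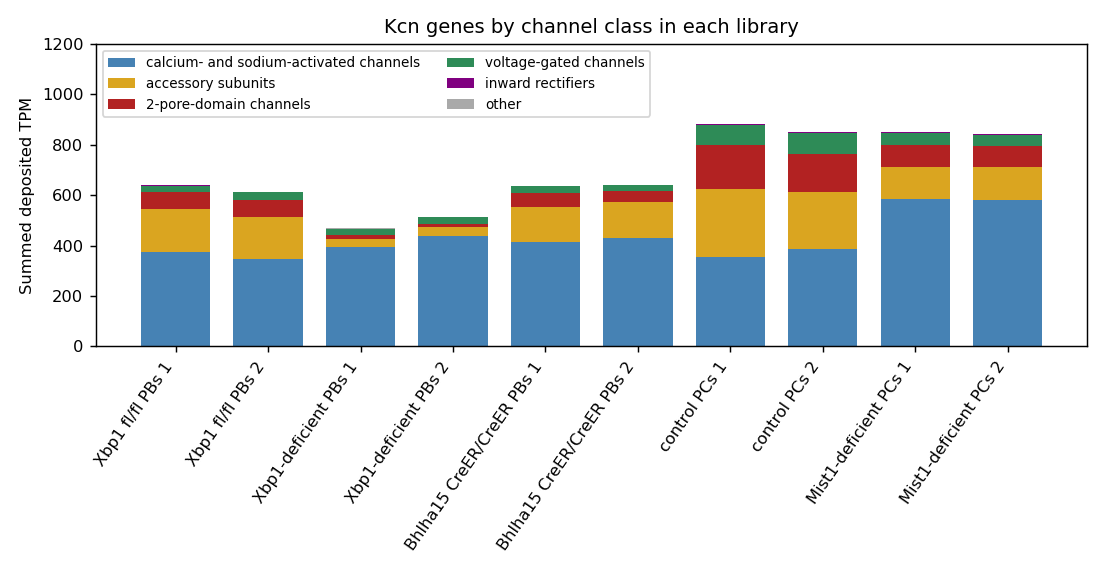
Summed deposited TPM of the 95 Kcn genes in each library, stacked by channel class. The calcium- and sodium-activated class, nearly all of it Kcnn4, makes up 355 TPM in replicate 1 of the control PCs and 583 TPM in replicate 1 of the Mist1-deficient PCs, while the 2-pore-domain class is at 16.8 and 14.9 TPM in Xbp1-deficient PBs.

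Few of the other 90 Kcn genes were expressed. At least 1 TPM in 2 libraries was reached by 9 of them in PBs and 12 in PCs, beside 5 of 5 of the named genes. None of the 9 passed in *Bhlha15* CreER/CreER PBs with limma, nor at an unadjusted p under 0.05. None of the 12 passed in Mist1-deficient PCs with limma, where 2 had an unadjusted p under 0.05. These were *Kcnab3*, another beta subunit gene, at 3.16 and 3.07 TPM against 4.36 and 4.86 TPM, and *Kcnq5*, a voltage-gated channel gene, at 7.34 and 7.16 TPM against 9.41 and 8.87 TPM.

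Between control PCs and control PBs, 7 of the 14 other Kcn genes tested were higher and 3 lower, beside 37.6% and 38.4% of all genes. The most abundant in PCs was *Kcnmb4*, a beta subunit gene of calcium-activated channels, which was at 13.3 and 11.1 TPM in control PCs and 4.15 and 3.58 TPM in control PBs (log2 difference 1.52, adjusted p = 0.000167, limma). *Kcnmb4* carries a suffix in the files that reads as a mark of overlap. *Kcnk2*, a further 2-pore-domain gene, was lower in PCs, where it is listed at 0 in all 4 libraries, and was at 0.96 to 2.2 TPM in PBs. Fibroblast genes moved with it, since *Col1a1* and 7 others summed to 8.39 to 11.2 TPM in PCs and to 797 to 1556 TPM in PBs. Their part in the *Kcnk2* value was not tested. Further Kcn genes with a mean of at least 1 TPM in a group were low: *Kcnab1*, *Kcnab3*, *Kcnc4*, *Kcnd1*, *Kcng1*, *Kcnip4*, *Kcnj10*, *Kcnj13*, *Kcnmb3* and *Kcnrg* lay at 4.86 TPM or less in every library.

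Mist1 peaks lay at all 5 genes in LPS-stimulated PBs. The 2 lists hold 29413 and 30247 peaks, and merging the peaks that overlapped between them by 1 bp or more gave 23804 common regions. Each of the 5 genes had a common region within 1 kb of an annotated start site, whether it was lower without Mist1 or, like *Kcnn4*, higher. This has to be read against 64.2% of the 10859 annotated genes of the PB fit, and 36.5% of all 22238 annotated protein-coding genes, that had one as well. Regions within 10 kb of the gene were found at 5 of 5, beside 81% of the PB genes and 54% of all annotated genes. *Kcnk6* had 2 such regions, *Kcnk5* 3, *Kcnab2* 4, *Kcna3* 3 and *Kcnn4* 5. The peak lists give positions alone and stem from another culture than the RNA-seq PBs, so that no strength of binding can be compared.

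In mm9 coordinates, *Kcnk6* (chr7:30006947-30017541, minus strand) had its promoter region at chr7:30016648-30017874, 1227 bp wide, and a further one whose centre lay at -5750 bp from its start site. *Kcnk5* (chr14:20959280-21001004, minus strand) had a wide region of 3599 bp at its start site (chr14:20998235-21001833) and 2 more in the gene body, of which the larger spanned 3826 bp. *Kcnab2* (chr4:151764851-151851980, minus strand) had regions at its promoter 1 (chr4:151851739-151852592) and at its promoter 3 (chr4:151821722-151823192), both printed above, and none over its promoter 2, whose start site was 3862 bp away from the nearest region. *Kcna3* (chr3:106839080-106841047, plus strand) had the widest region of the 5 genes, 4393 bp, which covers the whole gene model. *Kcnn4* (chr7:25155282-25170228, plus strand) had a region of 1759 bp over its promoter and 4 in the gene body.

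**Figure D5:**
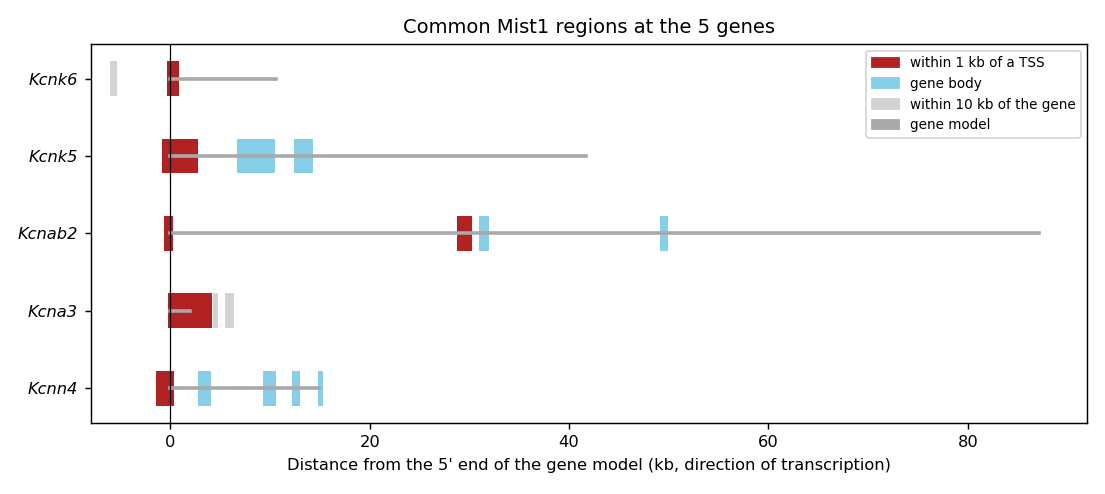
Common Mist1 regions (bars) at the 5 genes, plotted by distance in kb from the 5′ end of the gene model in the direction of transcription, with the gene model as a line. Every gene has a region within 1 kb of a start site, and the number within 10 kb runs from 2 at Kcnk6 to 5 at Kcnn4.

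The 100 bases at the centre of 15 regions of *Kcnk5*, *Kcnab2*, *Kcna3* and *Kcnn4* were searched for the 3 E-boxes. An E-box was found in 5 of the 15, beside 29.8% of all 23804 regions. CAGGTG was found in 4 of them, beside 10.8% of all regions, and CATATG in 1, beside 6.15%. CAGCTG was found in none of them and in 15.7% of all regions. Regions at the start sites of *Kcnn4*, higher without Mist1 in PCs, and of *Kcna3*, lower there, both held CAGGTG at their centres. The centre lay at -552 bp from the start site of *Kcnn4* and at 1980 bp from that of *Kcna3*. For *Kcna3* the window shown therefore lies outside the promoter and spans the end of the gene model at 106841047. Both centres are shown with CAGGTG in capitals, from chr7:25154680-25154779 and chr3:106841010-106841109 of mm9 on the plus strand.
Kcnn4 region centre: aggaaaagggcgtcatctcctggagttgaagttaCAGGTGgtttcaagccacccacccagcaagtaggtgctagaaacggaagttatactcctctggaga
Kcna3 region centre: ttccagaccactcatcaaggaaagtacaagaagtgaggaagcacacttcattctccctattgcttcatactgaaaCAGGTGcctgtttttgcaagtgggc

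Genes that work with these channels were examined from lists set by hand. The calcium list held 18 genes of calcium entry and calcium stores, of which 8 of 17 tested fell and none rose in Xbp1-deficient PBs, beside 18.0% and 10.3% of all genes, with a median log2 difference of -0.27 beside 0.0041 for all genes. *Tmem66*, which limits store-operated calcium entry, was at 162 and 159 TPM against 443 and 418 TPM (-1.63, adjusted p = 1.04e-05, limma). *Atp2a2*, the calcium pump of the ER, was at 207 and 202 TPM against 370 and 348 TPM (-1.02, adjusted p = 5.03e-05, limma). *Stim2*, a calcium sensor of the ER, was at 12.25 and 12.05 TPM against 20.1 and 20.3 TPM (-0.94, adjusted p = 0.00015, limma). In Mist1-deficient PCs 8 of 18 fell and none rose, beside 16.2% and 13.3% of all genes, with a median of -0.27. Among them were *Efcab4b*, a regulator of store-operated entry (-0.97, adjusted p = 0.0065), *Tmem66* (-0.68, adjusted p = 0.0113), *Stim2* (-0.64, adjusted p = 0.0112) and the channel gene *Orai2* (-0.55, adjusted p = 0.0252), all with limma. No gene of the list passed the test in *Bhlha15* CreER/CreER PBs with limma, and 1 had an unadjusted p under 0.05.

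The list of potassium uptake and cell volume held 16 genes. In Xbp1-deficient PBs, 3 of 13 fell and 2 rose, beside 18.0% and 10.3% of all genes, so that the counts lie near the background. The proton channel gene *Hvcn1* was at 86.1 and 80.9 TPM against 134 and 142 TPM (-0.93, adjusted p = 4.53e-05, limma). *Atp1b1*, a beta subunit of the sodium-potassium pump, rose in all 3 mutants and was the only gene of the list called in *Bhlha15* CreER/CreER PBs. It was at 11.1 and 11.3 TPM in Xbp1-deficient PBs and 4.96 and 4.09 TPM in *Bhlha15* CreER/CreER PBs against 1.09 and 1.48 TPM in control PBs (2.84 and 1.79, adjusted p = 1.32e-05 and 0.00715, limma). In PCs *Atp1b1* was at 179 and 210 TPM without Mist1 against 91.5 and 105 TPM (1.01, adjusted p = 0.00221, limma), and 3 of 15 genes of the list fell and 3 rose there, beside 16.2% and 13.3% of all genes. *Atp1b1* and *Hvcn1* carry the mark of overlap in the files.

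The list on KCa3.1 held 8 partners and regulators of that channel. In Mist1-deficient PCs, where *Kcnn4* was higher, 4 fell and 1 rose, beside 16.2% and 13.3% of all genes. The calmodulin genes *Calm3* (-0.55, adjusted p = 0.00761, limma) and *Calm2* (-0.52, adjusted p = 0.00451, limma) encode the calcium sensor of the channel, and *Mtmr6* (-0.42) and *Phpt1* (0.52) encode phosphatases known as inhibitors of it. In Xbp1-deficient PBs 3 fell and 1 rose, beside 18.0% and 10.3% of all genes, namely *Trim27* (-0.73), *Mtmr6* (-0.55), *Nme2* (-0.37) and *Phpt1* (0.29), and none passed the test in *Bhlha15* CreER/CreER PBs with limma, with 2 at an unadjusted p under 0.05.

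For each gene, the genes with the most similar pattern over the 10 libraries were found by the root mean square difference of centred log2 values among 10792 genes. *Kcnk6* was closest to *Hid1* (0.41), *Ppapdc1b* (0.53) and *Dnajb9* (0.57). *Hid1* measured on average 124 TPM in control PBs and 2.66 TPM in Xbp1-deficient PBs. In PCs, *Hid1* and *Ppapdc1b* were lower without Mist1, as *Kcnk6* was, with means of 216 against 353 TPM and 396 against 680 TPM. *Dnajb9* did not share this part of the pattern, with 681 TPM in Mist1-deficient against 668 TPM in control PCs. In PBs it fell to 29.7 TPM without Xbp1 from 306 TPM in the control. *Kcnk5* was closest to *Fpgs* (0.16), *Il1rap* (0.19) and *Ppm1k* (0.20), and *Kcna3* to *Nuggc* (0.11), *BC029214* (0.15) and *Rgs14* (0.16). *Kcnab2* was closest to *Nucb2* (0.22), *Slc1a5* (0.22) and *Gmppb* (0.26), and *Kcnn4* to *Donson* (0.09), *Vamp3* (0.10) and *Cltb* (0.10). Among the 5 genes the closest pair was *Kcnk5* and *Kcna3* with 0.30, and the most distant was *Kcnk6* and *Kcnn4* with 2.14. These values describe likeness in 10 libraries of 5 groups, and a gene with small differences such as *Kcnn4* finds close neighbours more easily.

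Markers of other cells varied with the groups, and their part in the results was not tested. *Kcna3* and *Kcnn4* are also expressed in T cells. The 10 genes of the T cell list summed to 210 and 222 TPM in control PCs and to 324 and 335 TPM in Mist1-deficient PCs, with all 10 above 1 TPM. *Cd28* took most of the sum, at 115 and 126 TPM in control PCs and 215 and 195 TPM in Mist1-deficient PCs. This gene is not particular to T cells, since the study sorted PCs of the bone marrow as CD28+ cells. The sum therefore does not measure T cells alone. *Cd3e* was at 8.69 and 10.8 TPM in control PCs and 11.1 and 15.8 TPM in Mist1-deficient PCs (adjusted p = 0.118, limma). *Cd4* went the other way, with 16.7 and 16.6 TPM in control PCs and 14.1 and 15.5 TPM in Mist1-deficient PCs. *Cd8a* overlapped between them. Of the 10 genes, 3 (*Cd28*, *Cd3d* and *Cd5*) were higher and 0 lower at an adjusted p under 0.05 (limma), beside 13.3% and 16.2% of all genes. *Kcna3* was lower and *Kcnn4* higher in Mist1-deficient PCs. In PBs the list summed to 77.1 and 82.2 TPM in the control and to 151 and 142 TPM without Xbp1, where *Thy1* was highest. *Cd8a* was listed at 0 in every PB library and *Cd3e* at 0.0856 TPM or less. In the same libraries *Cd3g* lay between 5.26 and 9.55 TPM and *Cd28* between 27.7 and 36.1 TPM. The neutrophil genes summed to 8.41 and 7.92 TPM in control PBs, 125 and 123 TPM in Xbp1-deficient PBs and 448 to 951 TPM in PCs. The macrophage list summed to 135 and 136 TPM in control PBs and 33.1 and 35.6 TPM in Xbp1-deficient PBs, with 2 genes at 0 in each of these 4 libraries. Most of this difference was in *Cd68*, at 128 and 131 TPM against 16.9 and 18.7 TPM, whereas *Lyz2* rose (1.26, adjusted p = 0.000215, limma). In PCs the list summed to 224 to 269 TPM without a separation of the genotypes. The erythroid list reached at most 12.1 TPM. The list of earlier B cells held 8 genes, among them *Pax5* and *Ms4a1*. In Xbp1-deficient PBs 1 of 7 tested was lower (*Cd22*, -1.01) and 1 higher (*Cd79b*, 0.72), beside 18.0% and 10.3% of all genes. In Mist1-deficient PCs 1 of 8 was lower (*Ms4a1*, -0.44) and 0 higher, beside 16.2% and 13.3% of all genes.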

How the data were processed

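RNA-seq of 10 libraries and 2 lists of Mist1 peaks were analysed. The authors deposited TPM values, for which they trimmed reads with cutadapt, aligned them to mm9 with STAR 2.4.2, counted them with featureCounts 1.5 and divided by gene length, leaving out immunoglobulin and T cell receptor genes. The strand setting of the counting is not given in the sources used here. The peak lists, deposited as positions, were made by the authors with Bowtie 1.0.0 and MACS. Tool versions are from the submitters' processing notes.

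Libraries were scaled by the median of ratios. Genes that reached 1 TPM in 2 or more libraries were fitted on log2(scaled TPM + 0.1) with limma 3.58.1 (lmFit, eBayes with trend) in R 4.3.3, and a fold change on this scale understates the change of low genes. The 6 PB libraries, the 4 PC libraries and all 10 libraries formed 3 fits. P-values were adjusted by Benjamini-Hochberg across every gene of a fit and called under 0.05. With 2 libraries for each group, an exact permutation test cannot go below p = 0.333, so that none was used. The study names independent experiments for each genotype, and the labels do not say whether libraries of a group came from separate animals, so that p-values measure the spread between these libraries. The fits were tested on simulated data. Peaks were handled with bedtools 2.31.1 and genes of GENCODE M1 (mm9), and sequences with Python 3.11.15.

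The 5 genes and all lists were chosen with earlier results of these data known. Genes named are the 5 genes, other Kcn genes with a mean of at least 1 TPM in a group, up to 4 called genes of a pathway list for each contrast with the largest changes, the deleted genes and the 3 closest genes in pattern, and some of these are not reported here. Alternatives were unscaled TPM and quantile normalization, pseudocounts of 0.01 and 1, stricter and no filters, eBayes without trend, fits of the compared libraries alone, each library left out, and other overlaps and distances of peaks.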

Additional observations from a re-analysis of the deposited data

Results flagged for a closer look

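*Kcnip4*, *Kcnj13* and *Kcnmb4* stood on opposite sides of their control in the 2 settings of Mist1 loss, with every mutant library below every control library in PBs and above it in PCs. For *Kcnmb4* in PCs the separation was only 13.37 TPM without Mist1 against 13.35 TPM in the control. The share of all genes on opposite sides, or on the same side, in the 2 settings is not given. The mean TPM of *Bhlha15* CreER/CreER PBs over that of *Xbp1* fl/fl PBs was 0.692 for *Kcnip4*, 0.332 for *Kcnj13* and 0.795 for *Kcnmb4*. The mean TPM of Mist1-deficient over control PCs was 1.24, 1.47 and 1.12, respectively. The difference between the settings was not tested. None of these genes passed the test in Mist1-deficient PCs with limma (none had an unadjusted p under 0.05). In *Bhlha15* CreER/CreER PBs *Kcnmb4* did not pass, and the other two were below the filter and not tested. *Kcnip4* and *Kcnj13* lay below 2.5 TPM in every library. *Kcnk6*, *Kcnk5*, *Kcnab2* and *Kcna3* were on the same side, below the control, in both settings, and *Kcnn4* was above it in both.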

How the results depend on the processing

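The 10 libraries give no depth, so that a counting error cannot be set for any gene, and 2 libraries for each group leave little room to judge the spread. *Kcnk6*, *Kcnk5*, *Kcnab2* and *Kcna3* kept their direction in every contrast under every alternative, and each passed the test between control PCs and control PBs in 18 of 18. The number of members with a Mist1 region stayed at 5 under each alternative for overlap and distance. *Kcnn4* between these stages was 0.044 as deposited and 0.19 (limma, adjusted p = 0.0229) after quantile normalization, and -0.15 to 0.0027 with each library left out, the upper value without replicate 1 of the control PBs. Its adjusted p ran from 0.0229 to 0.982 over these alternatives. In Xbp1-deficient PBs it was -0.090 to 0.11 with each library left out. The cause of these reversals was not tested.

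As deposited, the calls in Xbp1-deficient PBs were 1357 lower and 3423 higher, with 0 other Kcn genes, and those in *Bhlha15* CreER/CreER PBs were 74 lower and 12 higher. After quantile normalization they were 2517 higher in Xbp1-deficient PBs, and 68 lower and 12 higher in *Bhlha15* CreER/CreER PBs. Without a filter there were 10 higher genes in *Bhlha15* CreER/CreER PBs, and 1 other Kcn gene in Mist1-deficient PCs and 27 between the stages, when more genes were tested. With a filter of 5 TPM there were 0 other Kcn genes in Xbp1-deficient PBs and 2 between the stages, when fewer were tested, and 53 lower genes in *Bhlha15* CreER/CreER PBs. Without trend there were 11 lower genes in *Bhlha15* CreER/CreER PBs, and 844 higher genes and 1 other Kcn gene in Mist1-deficient PCs.

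With each library left out, Xbp1-deficient PBs had 1282 to 2509 lower and 540 to 1730 higher genes and 0 to 1 other Kcn genes, with the lowest counts without replicate 1 of the control PBs. Without replicate 2 of the control PBs or replicate 1 or 2 of the Xbp1-deficient PBs, the higher genes were 576, 624 and 600. *Bhlha15* CreER/CreER PBs had 3 to 39 lower and 0 to 23 higher genes, again with the lowest counts without replicate 1 of the control PBs and the most higher genes without replicate 1 of the *Bhlha15* CreER/CreER PBs. They were 13 lower and 11 higher without replicate 2 of the control PBs, and 10 higher without replicate 1 of the Xbp1-deficient PBs. Mist1-deficient PCs had 816 to 2172 lower and 294 to 2085 higher genes, both lowest without replicate 2 of the Mist1-deficient PCs (947 and 394 without replicate 1), and 0 to 1 other Kcn genes, the 1 without replicate 2 of the control PCs. A group left with 1 library is assumed to vary like the others of its fit. No paired analysis was possible because replicates are not numbered across groups in the labels.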
